A study of Mus musculus with 48 samples.

Results

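Atp8b4, Ror1, Slc7a9 and Cgnl1 are 4 protein-coding genes that were transcribed at higher levels in synchronized mouse embryonic stem cells (ESCs) treated to delete Foxd3 than in vehicle-treated cells. They were named for that difference, and each symbol was matched to 1 gene identifier among the 54752 genes of every count table, so 4 of 54752 genes were followed. The 4HT and ethanol values of synchronized cells chose them and are therefore given as a description, without a test. Their levels in cycling cells and after OCT4 loss were not named in that choice. The choice was made with earlier results of these data known, so these levels may not be independent of it. Change along the release from the block was not the contrast that chose them, but it is read from the same libraries.

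The study sequenced nascent RNA, the RNA made while 4-thiouridine (4SU) was present in the medium, from mouse ESCs grown in L2i medium. All FOXD3 libraries came from FOXD3-iKO cells, in which an inducible knockout of Foxd3 is triggered by 4HT (tamoxifen) and ethanol is the vehicle. Cycling cells of this genotype were collected 8, 14, 24 and 32 h after 4HT or after ethanol, with a 30 min pulse of 4SU. Synchronized cells were held at the start of S phase by thymidine given in 2 rounds, were released from this block 24 h after 4HT or ethanol, and were collected at 0, 1, 2, 3, 4 and 5 h of release with a 15 min pulse. OCT4-tetOff cells, in which doxycycline (DOX) switches OCT4 off, were collected 16 and 24 h after DOX or after water (H2O). These libraries also had a 30 min pulse. Each of the 24 groups had 2 libraries, 48 in all. The labels name neither the recombinase nor the part of Foxd3 that is removed, and no group received 4HT without the FOXD3-iKO allele, so effects of 4HT itself and of FOXD3 loss cannot be told apart. The labels do not say that replicates were separate cultures, so every p-value measures the spread between these libraries, which may be technical.

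FOXD3 is a forkhead transcription factor of pluripotent and neural crest cells, and OCT4, encoded by Pou5f1, is a core transcription factor of the pluripotent state. The 4 genes belong to unrelated families. Atp8b4 encodes a P4-ATPase, one of a family of pumps that move phospholipids from the outer to the inner leaflet of a membrane. Ror1 encodes a receptor tyrosine kinase-like protein that binds WNT5A in the noncanonical WNT pathway. Slc7a9 encodes the light chain of a cystine and dibasic amino acid transporter that pairs with the heavy chain Slc3a1, and its loss causes cystinuria in humans. Cgnl1 encodes paracingulin, a cytoplasmic scaffold of epithelial junctions and the close relative of cingulin.

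The counted intervals, in mm10 coordinates of the deposited tables, differed widely in length. Atp8b4 (ENSMUSG00000060131.11) spans chr2:126320973-126500674 on the minus strand, 179.702 kb. Ror1 (ENSMUSG00000035305.5) spans chr4:100095791-100444765 on the plus strand, 348.975 kb, and contains the predicted genes Gm12701 and Gm12706. Slc7a9 (ENSMUSG00000030492.16) spans chr7:35448796-35466036 on the plus strand, 17.241 kb. Cgnl1 (ENSMUSG00000032232.14) spans chr9:71626509-71771602 on the minus strand, 145.094 kb. Counts were taken over the whole interval from the first to the last base, so introns and exons both contribute.

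Because FOXD3 is a forkhead factor, the RefSeq promoter windows of the 4 genes (250 bases before to 50 after the annotated start, GRCm38.p6) are shown with any forkhead word in capitals. The words searched on both strands were GTAAACA and GTAAATA and GCAAACA and GCAAATA and ATAAACA and ATAAATA and ACAAACA and ACAAATA. The windows are chr2:126491504-126491803 (minus strand) for Atp8b4, chr4:100095541-100095840 (plus strand) for Ror1, chr7:35448842-35449141 (plus strand) for the first start of Slc7a9, and chr9:71771553-71771852 (minus strand) for Cgnl1.
Atp8b4: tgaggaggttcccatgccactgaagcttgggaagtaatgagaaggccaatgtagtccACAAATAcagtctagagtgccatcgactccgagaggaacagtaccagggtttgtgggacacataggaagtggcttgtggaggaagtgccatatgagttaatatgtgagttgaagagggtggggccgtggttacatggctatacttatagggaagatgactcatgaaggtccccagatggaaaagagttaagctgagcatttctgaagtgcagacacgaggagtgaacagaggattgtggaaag
Ror1: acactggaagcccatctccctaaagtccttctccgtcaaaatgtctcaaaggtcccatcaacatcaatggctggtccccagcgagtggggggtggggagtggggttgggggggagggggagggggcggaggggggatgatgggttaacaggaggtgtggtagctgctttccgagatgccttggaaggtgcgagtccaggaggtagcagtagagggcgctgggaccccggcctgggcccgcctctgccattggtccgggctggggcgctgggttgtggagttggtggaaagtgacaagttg
Slc7a9: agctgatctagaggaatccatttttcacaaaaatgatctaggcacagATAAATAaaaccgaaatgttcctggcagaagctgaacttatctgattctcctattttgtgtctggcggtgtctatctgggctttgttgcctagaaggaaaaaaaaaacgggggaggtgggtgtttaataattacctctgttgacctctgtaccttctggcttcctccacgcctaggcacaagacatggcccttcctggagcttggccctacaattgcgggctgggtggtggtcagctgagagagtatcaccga
Cgnl1: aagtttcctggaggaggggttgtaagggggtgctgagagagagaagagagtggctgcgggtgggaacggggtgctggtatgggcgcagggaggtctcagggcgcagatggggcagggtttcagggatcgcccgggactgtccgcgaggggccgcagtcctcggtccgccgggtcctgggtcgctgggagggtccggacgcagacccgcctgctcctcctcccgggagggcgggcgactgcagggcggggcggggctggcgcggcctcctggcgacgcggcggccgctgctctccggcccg

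Atp8b4 held 1 word, ACAAATA, and Slc7a9 held 1, ATAAATA, while no word lay in the Ror1 window, the Cgnl1 window or the second Slc7a9 window. Of all 32851 promoter windows of the same length, 27.5% held at least 1 of these words, so matches in these windows are a description and no evidence of binding. The octamer word ATGCAAAT, bound by OCT4, was in none of the windows and in 1.74% of all windows. Base composition separated the genes: the Cgnl1 window had 73.3% G and C and 30 CpG dinucleotides, more CpGs than 88.3% of windows, and the Ror1 window had 62.3% and 10 CpGs. The Atp8b4 window had 48% and 4 CpGs and the Slc7a9 window 47% and 6 CpGs, against medians of 52.7% and 7 CpGs over all windows. The RefSeq start of Atp8b4 lies 9.121 kb inside its counted interval and that of Slc7a9 0.296 kb inside.

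Library totals were 21827951 to 30406124 counts in the 16 cycling FOXD3-iKO libraries, 21113158 to 26112435 in the 8 OCT4-tetOff libraries and 7953841 to 17936504 in the 24 synchronized libraries. Levels are given as CPM, counts scaled to a library of 1000000 counts after TMM normalisation between libraries, and 3 counts correspond to 0.0987 to 0.137, 0.115 to 0.142 and 0.167 to 0.377 CPM in these tables, in that order, covering counting error only. Foxd3 itself was lower after 4HT in every comparison: 1.17 to 2.19 CPM in 12 synchronized 4HT libraries against 3.89 to 8.23 CPM in 12 ethanol libraries, with a log2 change of -1.84 ± 0.14 (SE, edgeR adjusted p = 7.1e-09). The fall did not pass adjustment at 8 and 14 h in cycling cells (-1.33 and -1.49, edgeR adjusted p = 0.39 and 0.14). Nor did it pass at 0 h of release (-1.50, edgeR adjusted p = 0.076). Of 9 ESC markers, 8 were detected and summed to 3068 to 3676 CPM in synchronized 4HT libraries and 2811 to 3416 CPM in ethanol libraries. Sox2 was listed at 0 in every library of all 3 tables.

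In synchronized cells all 4 genes had higher nascent RNA levels after 4HT at each of the 6 release times, and the 4HT and ethanol libraries did not overlap at any time. Averaged over release times, the log2 difference between 4HT and ethanol was 1.37 for Atp8b4, 1.36 for Ror1, 1.34 for Slc7a9 and 1.10 for Cgnl1. These values ranked 4, 5, 6 and 19 from the top among 17739 genes tested. Of those genes, 3.03% had 4HT libraries above ethanol libraries at each of the 6 times, which is printed beside the members' count because the same values chose them. With library totals alone as the scale, in place of TMM, the median gene shifted by -0.21, and the differences were still positive, 1.14 for Slc7a9 and 0.90 for Cgnl1. In bulk RNA, more cells that transcribe a gene and more RNA per cell cannot be told apart.

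Atp8b4, the P4-ATPase gene, had 9.18 and 11.3 CPM at 0 h in 4HT cells, against 5.94 and 5.92 CPM in ethanol cells. By 3 h it had 23.8 and 23.6 CPM in 4HT cells, against 5.16 and 9.31 CPM in ethanol cells. At 5 h it had 21.2 and 22.7 CPM in 4HT cells, against 6.62 and 7.37 CPM in ethanol cells. The smallest difference was at the time of release, a log2 value of 0.78, and the differences at 1, 2, 3, 4 and 5 h were 1.24, 1.25, 1.70, 1.49 and 1.64. In between, 4HT cells had 18.3 and 21.3 CPM at 1 h, 22.7 and 24.5 CPM at 2 h and 26.1 and 22.0 CPM at 4 h. Ethanol cells had 8.20 and 8.51 CPM, 8.64 and 11.1 CPM, and 7.89 and 9.27 CPM at these times. Over all 12 libraries per arm, levels were 9.18 to 26.1 CPM (median 22.3) after 4HT and 5.16 to 11.1 CPM (median 8.05) after ethanol. The arms overlapped only through the 0 h 4HT library at 9.18 CPM, since 11 of 12 4HT libraries lay above every ethanol library.

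Ror1, the WNT5A receptor gene, had 36.3 and 50.5 CPM at 0 h in 4HT cells, against 22.5 and 26.3 CPM in ethanol cells. At 1 h it had 51.6 and 48.1 CPM in 4HT cells, against 15.5 and 14.6 CPM in ethanol cells. At 5 h it had 88.9 and 93.0 CPM in 4HT cells, against 40.2 and 29.8 CPM in ethanol cells. The ethanol arm moved too, so the log2 difference did not follow the 4HT level: it was 0.82 at 0 h, 1.73 at 1 h, 1.34 at 2 h, 1.79 at 3 h, 1.11 at 4 h and 1.38 at 5 h. At 2, 3 and 4 h 4HT cells had 48.4 and 49.8, 68.6 and 77.4, and 81.1 and 79.4 CPM. Ethanol cells had 14.6 and 24.1, 17.8 and 24.3, and 27.4 and 47.2 CPM at these times. One ethanol library at 4 h reached 47.2 CPM, above the lowest 4HT library of 36.3 CPM at 0 h, and the other 11 of 12 4HT libraries lay above every ethanol library. Median levels were 60.1 CPM after 4HT and 24.2 CPM after ethanol.

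Slc7a9, the amino acid transporter light chain gene, had 10.3 and 10.0 CPM at 0 h in 4HT cells, against 3.56 and 4.56 CPM in ethanol cells. At 2 h it had 9.81 and 7.68 CPM in 4HT cells, against 3.12 and 2.77 CPM in ethanol cells. At 5 h it had 8.46 and 5.51 CPM in 4HT cells, against 3.54 and 2.95 CPM in ethanol cells. Slc7a9 was already different by 1.30 on the log2 scale at the time of release, and the later differences lay between 1.12 and 1.58. At 1, 3 and 4 h 4HT cells had 10.0 and 9.16, 8.41 and 7.42, and 9.94 and 9.63 CPM. Ethanol cells had 4.37 and 4.25, 3.36 and 3.03, and 3.29 and 3.24 CPM at these times. All 12 4HT libraries, 5.51 to 10.3 CPM with a median of 9.40, lay above all 12 ethanol libraries, 2.77 to 4.56 CPM with a median of 3.32.

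Cgnl1, the paracingulin gene, had 60.3 and 61.0 CPM at 0 h in 4HT cells, against 33.0 and 38.1 CPM in ethanol cells. At 2 h it had 63.8 and 68.4 CPM in 4HT cells, against 27.7 and 32.0 CPM in ethanol cells. At 5 h it had 92.1 and 99.4 CPM in 4HT cells, against 43.2 and 40.2 CPM in ethanol cells. The log2 difference was 0.77 at 0 h and between 1.10 and 1.21 at every later time. At 1, 3 and 4 h 4HT cells had 58.3 and 58.2, 78.9 and 73.8, and 86.3 and 81.6 CPM. Ethanol cells had 28.6 and 25.7, 35.9 and 30.3, and 33.7 and 41.5 CPM at these times. All 12 4HT libraries, 58.2 to 99.4 CPM with a median of 71.1, lay above all 12 ethanol libraries, 25.7 to 43.2 CPM with a median of 33.4. Separation of all 12 from all 12 in this direction was met by 0.519% of genes tested, and nothing is read from that share for genes chosen on these values.

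**Figure D1:**
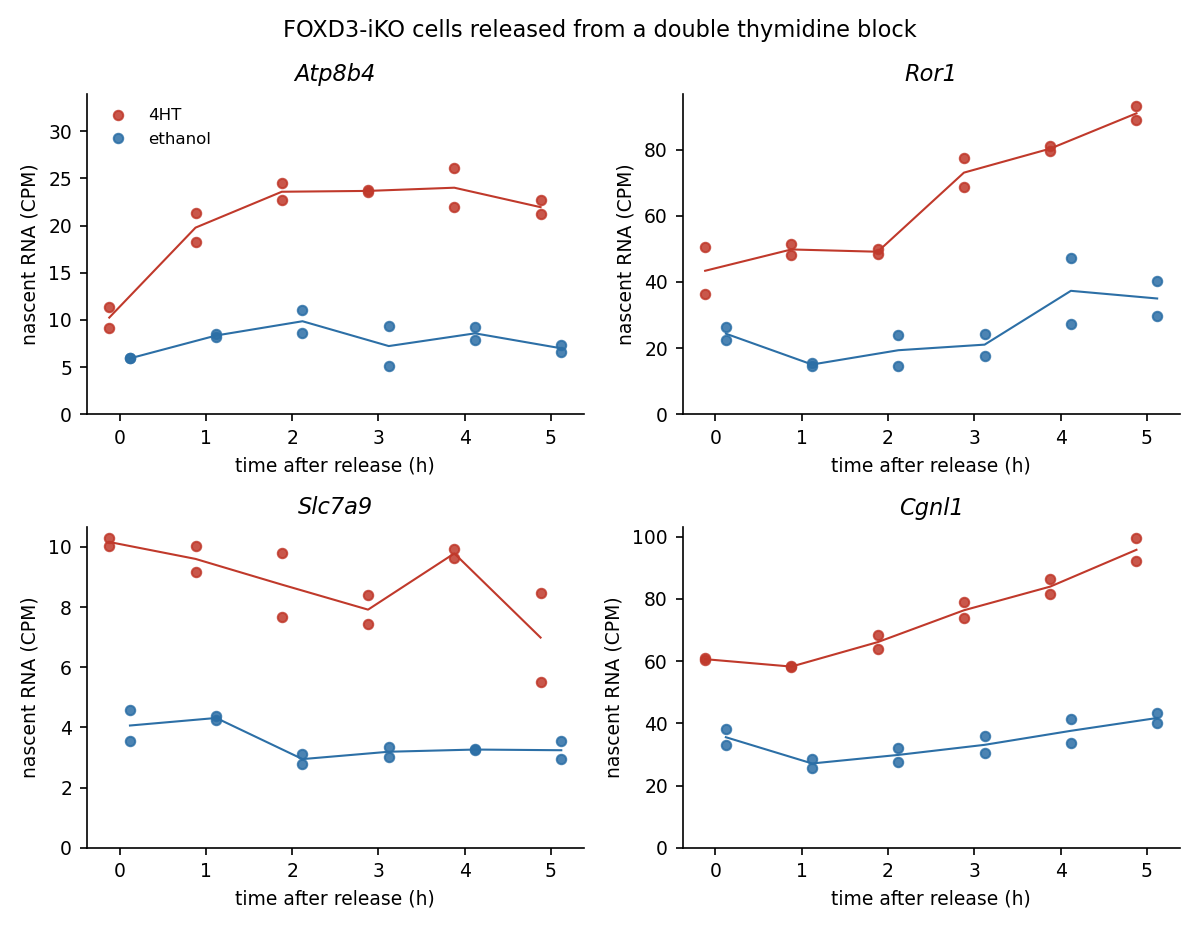
Nascent RNA level in CPM after TMM scaling (vertical axis) against hours after release from the double thymidine block (horizontal axis) for the 4 genes, with 1 point per library and lines through the means of 2 libraries, 4HT in red and ethanol in blue. At each release time both 4HT points lie above both ethanol points, and the Slc7a9 points span 5.51 to 10.3 CPM after 4HT and 2.77 to 4.56 CPM after ethanol, while Ror1 and Cgnl1 lie higher at 5 h than at 1 h in both arms.

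Per kilobase of counted interval the order of the genes differed from that in CPM. Slc7a9, the shortest, had a median level of 0.545 CPM per kb after 4HT and 0.193 CPM per kb after ethanol. Cgnl1 followed with 0.490 CPM per kb after 4HT and 0.230 CPM per kb after ethanol. Ror1 had 0.172 CPM per kb after 4HT and 0.0694 CPM per kb after ethanol, and Atp8b4 had 0.124 CPM per kb after 4HT and 0.0448 CPM per kb after ethanol. In these medians over all times Slc7a9 thus lay below Cgnl1 in the ethanol arm and above it in the 4HT arm. The order did not hold at each time. At 5 h in 4HT cells Slc7a9 had 0.491 and 0.319 CPM per kb, against 0.635 and 0.685 for Cgnl1. At 1 h in ethanol cells Slc7a9 had 0.254 and 0.247 CPM per kb, against 0.197 and 0.177 for Cgnl1.

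Markers of other cell types moved in the same libraries. Markers of primitive endoderm, an extraembryonic lineage, summed to 286 to 403 CPM in synchronized 4HT libraries against 208 to 281 CPM in ethanol libraries, and 4 of 7 tested markers were called higher and 1 lower, or 3 and 2 with total counts alone. The trophectoderm list summed to 49.1 to 77.3 CPM after 4HT against 31.1 to 53.4 CPM after ethanol, with 2 of 7 tested markers called higher and 1 lower, or 1 and 2 with total counts alone. The median log2 change was 0.16 for the primitive endoderm list and 0.01 for the trophectoderm list, against -0.01 over all genes. Over all 17739 genes in this contrast, 37% were called at an edgeR adjusted p under 0.05, and the part of these lineages in the members' levels was not tested.

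Within each arm the course after release asks whether a level changed over the 6 times, which is not the contrast that chose the genes. The courses are read from the same synchronized libraries that chose them, so their p-values are not independent of that choice. Release came 24 h after 4HT or ethanol, so time after release cannot be told apart from time since treatment. In 4HT cells Atp8b4, Ror1 and Cgnl1 changed with release time (edgeR quasi-likelihood test over 6 times, adjusted p = 0.0048, 0.019 and 0.0023), where 15.4% of all genes did. In ethanol cells Ror1 and Cgnl1 changed (edgeR adjusted p = 0.0080 and 0.013), where 19.4% of all genes did. Slc7a9 passed in neither arm (edgeR adjusted p = 0.20 in 4HT cells and 0.17 in ethanol cells), and Atp8b4 missed the threshold in ethanol cells (adjusted p = 0.13). Whether the courses differed between the arms was not tested, since that difference is part of the contrast that chose the genes.

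Atp8b4 in 4HT cells averaged 10.3 ± 1.5 CPM at 0 h, 19.8 ± 2.2 CPM at 1 h and 24.0 ± 2.9 CPM at 4 h (SD, n = 2 each), 2.34-fold the 0 h mean. Most of that difference was reached by 1 h, and the libraries of 0 h and 1 h did not overlap. In order of mean level, the 4HT groups at 4, 3 and 2 h overlapped in turn, as did those at 5 and 1 h. The 0 h 4HT group overlapped the highest ethanol group, 9.87 ± 1.7 CPM at 2 h. Without the first 0 h 4HT library the course of Atp8b4 in 4HT cells was no longer called (edgeR adjusted p = 0.0935), and in ethanol cells it was called without the first or the second 3 h library (adjusted p = 0.0136 and 0.0039).

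Ror1 in 4HT cells stayed near its 0 h mean of 43.4 ± 10 CPM at 1 and 2 h and then averaged 73.0 ± 6.2 CPM at 3 h, 80.3 ± 1.2 CPM at 4 h and 90.9 ± 2.9 CPM at 5 h (SD, n = 2 each). The 0, 1 and 2 h groups overlapped, and the 3, 4 and 5 h groups overlapped neither them nor each other. In ethanol cells it averaged 15.1 ± 0.63 CPM at 1 h, 0.618-fold the 0 h mean of 24.4 ± 2.7 CPM, and 37.3 ± 14 CPM at 4 h, 1.53-fold that mean. The later rise of Ror1, the longest of the 4 genes, was thus present in both arms in these means, with wide spread in ethanol cells. The 4HT course of Ror1 just missed the threshold without the first 0 h or the second 5 h library (edgeR adjusted p = 0.0603 and 0.0504).

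Cgnl1 in 4HT cells averaged 60.6 ± 0.53 CPM at 0 h, 58.2 ± 0.10 CPM at 1 h, 66.1 ± 3.2 CPM at 2 h, 76.3 ± 3.6 CPM at 3 h, 84.0 ± 3.3 CPM at 4 h and 95.8 ± 5.1 CPM at 5 h (SD, n = 2 each). None of these 6 groups overlapped its neighbour in order of level. In ethanol cells the lowest mean was 27.1 ± 2.0 CPM at 1 h and the highest 41.7 ± 2.1 CPM at 5 h, and neighbouring groups overlapped. Where a trend of log2 values with gene length was removed from every library, the Cgnl1 course was called in neither arm (edgeR adjusted p = 0.213 in 4HT cells and 0.198 in ethanol cells). In ethanol cells the Cgnl1 call was also lost without the second 1 h or the first 5 h library (edgeR adjusted p = 0.0695 and 0.0556).

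Slc7a9 in 4HT cells averaged 10.2 ± 0.17 CPM at 0 h and 6.99 ± 2.1 CPM at 5 h (SD, n = 2 each), and 4.06 ± 0.71 and 3.24 ± 0.41 CPM at these times in ethanol cells. Its order of groups in both arms was not an order of time, and the lowest 4HT group stayed clear of the highest ethanol group, 4.31 ± 0.085 CPM at 1 h.

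In cycling FOXD3-iKO cells the question was whether the same genes differed without the block, at 4 times after 4HT. Atp8b4 and Slc7a9 were called higher at 24 h, and Atp8b4, Slc7a9 and Cgnl1 at 32 h, while Ror1 was called at no time. The counts at 24 and 32 h were 2 of 4 and 3 of 4 genes, all higher, where 0.401% and 4.88% of 18707 genes were called higher and 0.481% and 9.47% in either direction. At 8 h 0 of 4 were called by edgeR or DESeq2 with 1 of 4 at an unadjusted p under 0.05, and at 14 h 0 of 4 by either tool with 2 of 4 unadjusted. The shares of all genes called at 8 and 14 h were 0.0107% and 0.016%.

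Atp8b4 was near the detection floor in cycling ethanol cells and rose furthest. At 24 h it had 2.09 and 1.63 CPM in 4HT cells (50 and 47 counts), against 0.475 and 0.426 CPM in ethanol cells (14 and 9 counts). At 32 h it had 4.11 and 5.35 CPM in 4HT cells (99 and 138 counts), against 0.964 and 0.625 CPM in ethanol cells (21 and 14 counts). The arms did not overlap at either time, and the log2 changes were 2.01 ± 0.36 at 24 h and 2.57 ± 0.29 at 32 h (SE, edgeR adjusted p = 0.026 and 0.00012). At 8 h the level was 0.560 and 1.11 CPM in 4HT cells, against 0.513 and 0.251 CPM in ethanol cells. At 14 h it was 0.723 and 0.585 CPM in 4HT cells, against 0.227 and 0.268 CPM in ethanol cells. These early differences, 1.13 at 8 h and 1.37 at 14 h on the log2 scale, rest on 6 to 29 counts per library, with intervals of 0.19 to 2.08 and 0.33 to 2.41. Neither was called after adjustment over all genes, and the unadjusted p was 0.022 at 8 h and 0.014 at 14 h (edgeR). Leaving out any 1 of the 4 libraries at 24 h ended the call there, with log2 values of 1.86 to 2.20.

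Slc7a9 had 4.23 and 4.72 CPM at 24 h in 4HT cells, against 2.75 and 2.18 CPM in ethanol cells. At 32 h it had 5.94 and 7.21 CPM in 4HT cells, against 3.08 and 3.21 CPM in ethanol cells. Both pairs were separated, and the gene rose by 0.85 ± 0.16 at 24 h and 1.06 ± 0.15 at 32 h on the log2 scale (SE, edgeR adjusted p = 0.035 and 0.00081). At 8 h the level was 2.04 and 2.38 CPM in 4HT cells, against 2.05 and 1.92 CPM in ethanol cells, and these overlapped. At 14 h it was 2.25 and 2.12 CPM in 4HT cells, against 1.67 and 1.44 CPM in ethanol cells, without overlap. The log2 differences at 8 and 14 h were 0.15 (interval -0.29 to 0.60) and 0.49 (interval 0.08 to 0.90), and neither was called. The 24 h call was lost without any 1 of the 4 libraries, with log2 values of 0.74 to 1.05, and with scaling to total counts outside Gm26917 and Gm42418 (0.89, edgeR adjusted p = 0.078).

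Cgnl1 had 30.2 and 28.3 CPM at 24 h in 4HT cells, against 18.5 and 17.6 CPM in ethanol cells. At 32 h it had 49.1 and 49.9 CPM in 4HT cells, against 31.2 and 21.5 CPM in ethanol cells. The arms were separated at both times. At 32 h Cgnl1 rose by 0.91 ± 0.14 on the log2 scale (SE, edgeR adjusted p = 0.0013), and at 24 h the difference of 0.69 ± 0.14 lay just above the threshold (edgeR adjusted p = 0.059), with an interval of 0.38 to 1.0. DESeq2 called it at 24 h with a log2 value of 0.71, as did edgeR under 6 other settings, at 0.70 to 0.77. In a fit of the 32 h groups alone neither Cgnl1 nor Slc7a9 was called there, at log2 values of 0.98 and 1.13 (edgeR adjusted p = 0.065 and 0.059). At 8 h the level was 9.80 and 10.2 CPM in 4HT cells, against 9.95 and 9.36 CPM in ethanol cells. At 14 h it was 8.67 and 11.2 CPM in 4HT cells, against 8.79 and 8.01 CPM in ethanol cells. The arms overlapped at both early times, with log2 differences of 0.05 (interval -0.30 to 0.40) and 0.24 (interval -0.10 to 0.59).

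Ror1 had 26.6 and 24.7 CPM at 24 h in 4HT cells, against 21.1 and 19.1 CPM in ethanol cells. At 32 h it had 30.2 and 34.5 CPM in 4HT cells, against 34.6 and 20.6 CPM in ethanol cells. The arms were separated by a narrow margin at 24 h and overlapped at 32 h. The log2 differences were 0.35 ± 0.18 (SE, interval -0.03 to 0.73, edgeR adjusted p = 0.64) and 0.23 ± 0.17 (interval -0.14 to 0.60, edgeR adjusted p = 0.46). A single ethanol library decided the 32 h value: the difference was 0.65 and called without the first (edgeR adjusted p = 0.002) and -0.10 without the second. With the length trend removed, Ror1 was called at 24 h at 0.46 (edgeR adjusted p = 0.0073). At 8 h Ror1 had 4.00 and 3.53 CPM in 4HT cells, against 3.50 and 3.63 CPM in ethanol cells, which overlapped. At 14 h it had 3.17 and 3.91 CPM in 4HT cells, against 2.92 and 2.61 CPM in ethanol cells, without overlap. The log2 differences were 0.08 (interval -0.46 to 0.61) and 0.36 (interval -0.18 to 0.91).

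**Figure D2:**
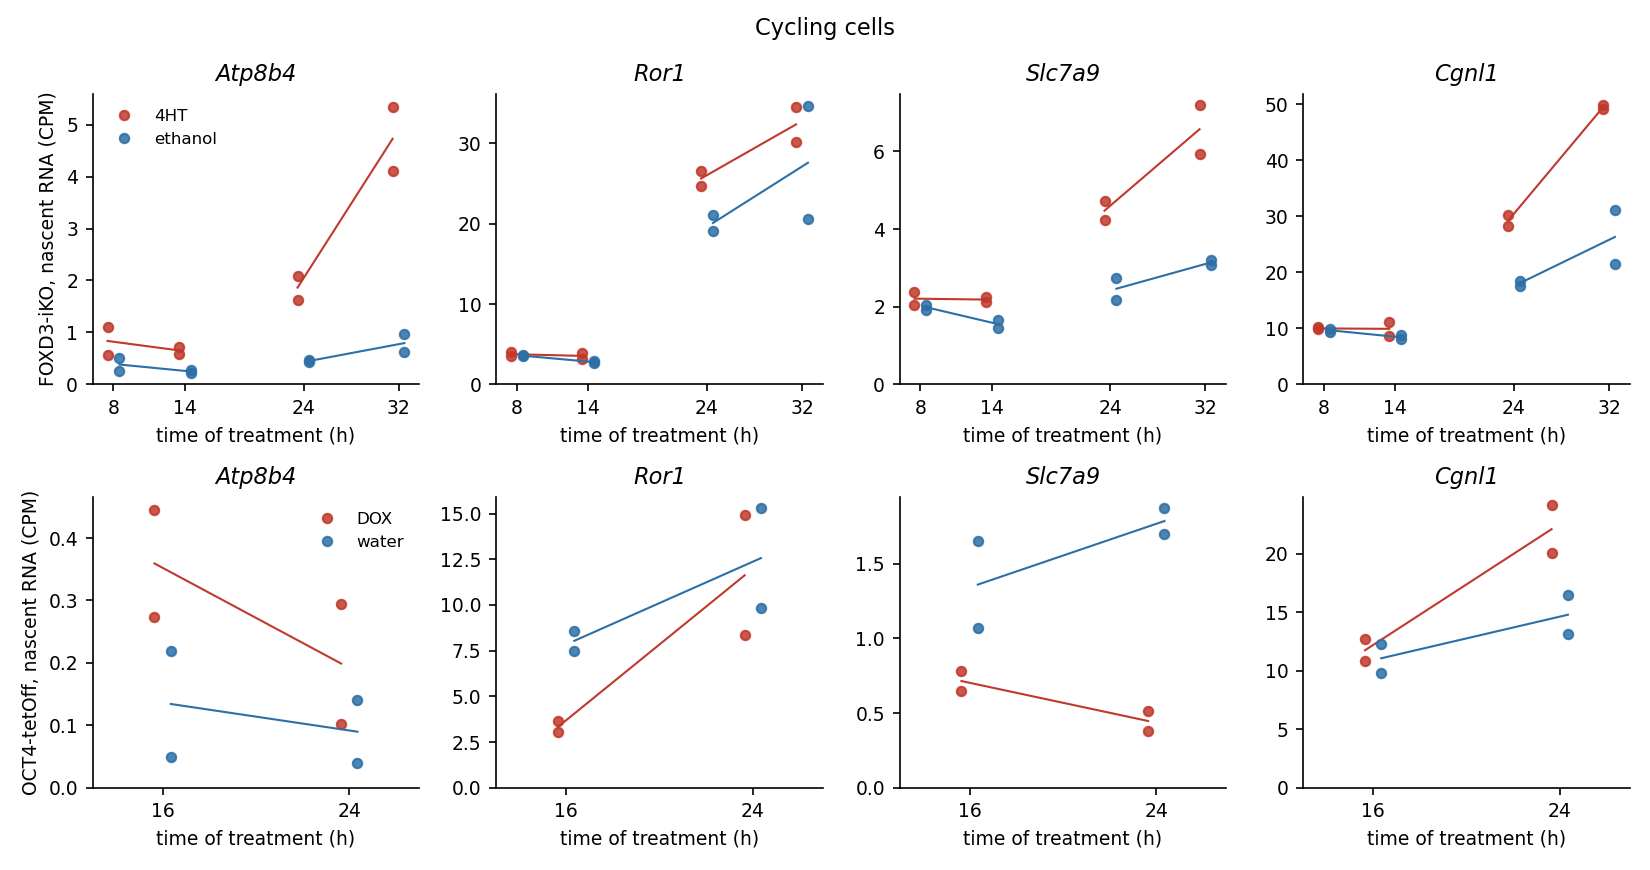
Nascent RNA level in CPM after TMM scaling (vertical axes) in cycling FOXD3-iKO cells against hours after 4HT or ethanol (top) and in OCT4-tetOff cells against hours after DOX or water (bottom), with 1 point per library and lines through the means of 2 libraries. The lines are broken between 14 and 24 h because those libraries belong to different numbered series, and the Atp8b4 4HT points reach 4.11 and 5.35 CPM at 32 h while all ethanol points stay below 1 CPM.

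In order of mean level over the 8 cycling groups, Atp8b4 and Slc7a9 were highest in 4HT cells at 32 h and next in 4HT cells at 24 h, and neither group overlapped its neighbours. For Cgnl1 the 4HT group at 32 h, 49.5 ± 0.51 CPM, stood apart, while the 4HT group at 24 h, 29.2 ± 1.3 CPM, overlapped the ethanol group at 32 h, 26.3 ± 6.9 CPM (SD, n = 2 each). For Ror1 the 3 highest groups, 4HT at 32 h, ethanol at 32 h and 4HT at 24 h, overlapped in turn. A test of any change of the 4HT response over the 4 times called none of the 4 genes with edgeR (adjusted p = 0.61 for Atp8b4, 0.99 for Ror1, 0.33 for Slc7a9 and 0.23 for Cgnl1). At an unadjusted p under 0.05 it would name 2 of 4, and DESeq2 called 1 of 4, Cgnl1 at an adjusted p of 0.0489 (edgeR gave 0.00468 without the first ethanol library of 32 h), where edgeR called 0.454% of all genes. The response at 32 h less that at 24 h was called for 0 of 18707 genes by edgeR and 15 by DESeq2, with 1395 at an unadjusted p under 0.05. For the members that difference was 0.56 (interval -0.54 to 1.66) for Atp8b4, -0.12 (-0.65 to 0.42) for Ror1, 0.22 (-0.27 to 0.70) for Slc7a9 and 0.22 (-0.21 to 0.65) for Cgnl1.

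The same lineage markers differed between the arms of cycling cells at 24 and 32 h, and in part at 8 and 14 h, when no member was called. Trophectoderm sums were 84.4 to 85.5 CPM after 4HT against 68.5 to 72.8 CPM after ethanol at 8 h. At 14 h they were 73.4 to 77.8 against 64.3 to 67.8 CPM. Primitive endoderm sums were 231 to 256 against 208 to 217 CPM at 14 h and overlapped at 8 h. At both times 0 of 8 tested markers of either list were called by edgeR or DESeq2, with at most 4 at an unadjusted p under 0.05. Primitive endoderm markers summed to 221 to 228 CPM in 4HT cells against 142 to 164 CPM in ethanol cells at 32 h, with 5 of 8 tested markers called higher. At 24 h they summed to 179 to 182 CPM after 4HT against 146 to 149 CPM after ethanol, with 0 of 8 called by edgeR, 1 by DESeq2 and 4 at an unadjusted p under 0.05. Trophectoderm markers summed to 86.7 to 89.3 CPM in 4HT cells against 48.2 to 67.7 CPM in ethanol cells at 32 h, with 2 of 8 called higher. The median log2 change of that list was -0.13, against -0.05 over all genes. At 24 h trophectoderm markers summed to 75.4 to 83.5 CPM after 4HT against 52.5 to 55.6 CPM after ethanol, with 1 of 8 called higher (0 with total counts outside Gm26917 and Gm42418). Their median there was 0.35, against -0.02 over all genes. Of all genes, 9.47% were called at 32 h and 0.481% at 24 h. Fibroblast markers stayed at or below 2.50 CPM in sum in every cycling FOXD3-iKO library, with Lum or Postn at 0 in each of the 8 groups. The part of these lists in the members' differences was not tested.

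OCT4 loss was the other perturbation in which the 4 genes could be followed. Pou5f1 fell by 1.5 on the log2 scale at 16 h and by 1.83 at 24 h after DOX, and Foxd3 fell by 1.93 and by 3.12. The members did not move as a group: at 24 h Slc7a9 fell, Cgnl1 rose, Ror1 did not pass and Atp8b4 was too low to test. Of the 3 tested members, 1 was called at 16 h and 2 at 24 h, where 16.9% and 36.9% of 17713 genes were called. All 8 tested ESC markers fell at 24 h, with sums of 967 to 1072 CPM after DOX against 2751 to 2759 CPM after water.

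Slc7a9 had 0.648 and 0.780 CPM at 16 h in DOX cells (16 and 20 counts), against 1.07 and 1.65 CPM in water cells (22 and 30 counts). At 24 h it had 0.377 and 0.516 CPM in DOX cells (11 and 14 counts), against 1.70 and 1.87 CPM in water cells (43 and 40 counts). The arms were separated at both times. It fell by 1.99 at 24 h on the log2 scale (SE 0.31, edgeR adjusted p = 0.0011), and the difference at 16 h was -0.91 ± 0.31 (interval -1.61 to -0.21, edgeR adjusted p = 0.080).

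Cgnl1 had 20.1 and 24.1 CPM at 24 h in DOX cells, against 13.1 and 16.5 CPM in water cells. It rose by 0.58 ± 0.16 on the log2 scale without overlap (SE, edgeR adjusted p = 0.019). At 16 h it had 10.8 and 12.7 CPM in DOX cells, against 12.3 and 9.84 CPM in water cells, an overlapping pair with a log2 difference of 0.08 (interval -0.30 to 0.47, edgeR adjusted p = 0.79). The 24 h call was lost without the second DOX library or the first water library, and the values without any 1 library were 0.42 to 0.75.

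Ror1 had 3.04 and 3.63 CPM at 16 h in DOX cells, against 8.60 and 7.48 CPM in water cells, and it fell by 1.27 on the log2 scale (SE 0.32, edgeR adjusted p = 0.025). At 24 h it had 8.33 and 14.9 CPM in DOX cells, against 9.83 and 15.3 CPM in water cells. The arms of Ror1 overlapped there, with a difference of -0.11 ± 0.27 (SE, interval -0.72 to 0.50, edgeR adjusted p = 0.78). The 16 h call was lost without any 1 of its 4 libraries, with log2 values of -1.41 to -1.15. The DOX response at 24 h less that at 16 h was 1.16 for Ror1 (interval 0.21 to 2.11, edgeR adjusted p = 0.35), one of 17713 genes of which 0 were called by edgeR, 90 by DESeq2 and 1952 had an unadjusted p under 0.05.

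Atp8b4 had 11 and 7 counts at 16 h and 3 and 8 at 24 h in DOX cells, against 1 and 4 counts at 16 h and 1 and 3 at 24 h in water cells. Most of these values lie near the limit of 3 counts, and the gene did not pass the filter on low counts. In a fit without that filter Atp8b4 was called at neither time at log2 values of 1.43 ± 0.77 at 16 h and 1.15 ± 0.89 at 24 h (SE, edgeR adjusted p = 0.30 and 0.45). A difference was not detectable at this depth, though both values were positive.

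The responses to 4HT and to DOX at 24 h were compared in 1 model over both genotypes. Slc7a9 differed: its FOXD3 response less its OCT4 response was 2.84 ± 0.34 on the log2 scale (SE, edgeR adjusted p = 0.00041), 4HT against ethanol being positive and DOX against water negative. It was the 1 of 4 members called, where 16.5% of 18437 genes were. The difference was 0.46 ± 0.35 for Ror1 (interval -0.32 to 1.25, edgeR adjusted p = 0.40; 0.93 and called without the second DOX library, adjusted p = 0.034) and 0.11 ± 0.19 for Cgnl1 (interval -0.31 to 0.54, adjusted p = 0.72). For Atp8b4 it was 0.87 ± 1.02, with an interval of -1.39 to 3.14 that spans both directions (edgeR adjusted p = 0.59).

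Foxd3 loss and OCT4 loss share a lower Foxd3 level, and the values stand side by side. At 24 h cycling Foxd3 was 3.31 and 3.37 CPM in 4HT cells against 8.45 and 9.99 CPM in ethanol cells. In OCT4-tetOff cells it was 2.85 and 1.88 CPM after DOX against 21.2 and 20.2 CPM after water. Primitive endoderm markers summed to 250 to 283 CPM after DOX against 190 to 224 CPM after water at 24 h, and trophectoderm markers to 128 to 155 CPM against 56.9 to 61.3 CPM. The neural list summed to 63.3 to 82.9 CPM after DOX against 27.7 to 28 CPM after water at 24 h, with 1 of 3 tested markers called higher. Sox1 and Tubb3 were at 0 here and in every other group of both genotypes, synchronized cells included. The part of these lists in the members' differences was not tested.

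**Figure D3:**
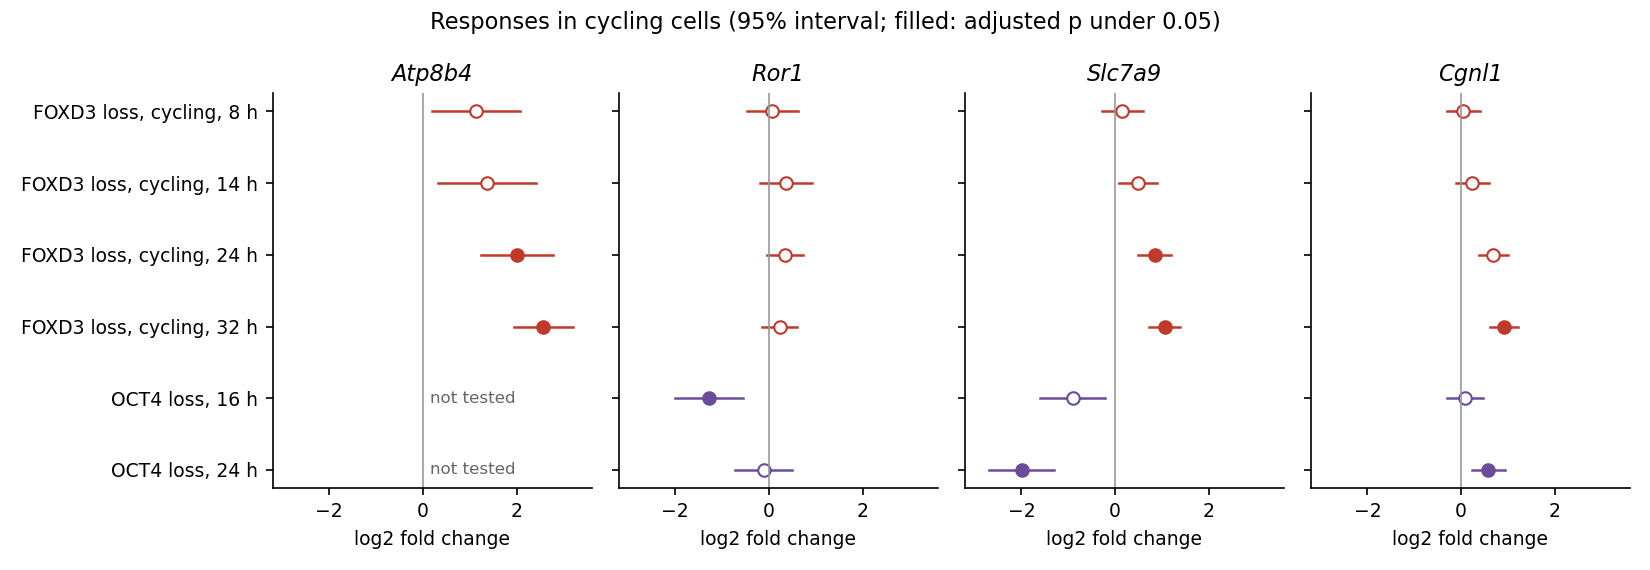
Log2 change of nascent RNA with its 95% interval (horizontal axis) for each gene after 4HT against ethanol at 8, 14, 24 and 32 h in cycling FOXD3-iKO cells and after DOX against water at 16 and 24 h in OCT4-tetOff cells, with filled points for an edgeR adjusted p under 0.05. Atp8b4 reaches 2.57 at 32 h, Slc7a9 lies at 1.06 after 4HT and at -1.99 after 24 h of DOX, and the Ror1 4HT intervals all include 0.

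The relatives and partners of the 4 genes were read from family lists, with the members themselves left out. The list counts stand against the share of all genes called in either direction, which was 37% in synchronized cells, 9.47% in cycling cells at 32 h and 36.9% after 24 h of DOX. In cycling cells at 24 h that share was 0.481%. Among flippases and their TMEM30 subunits, 7 of 14 tested genes rose and 0 fell in synchronized 4HT cells over the 6 times, but 0 rose and 1 fell with total counts alone as the scale. The list median was 0.24 against -0.01 over all genes, and 0.04 against -0.21 with total counts alone. Atp8b2 rose by 0.29 ± 0.06 and Atp8b1 by 0.32 ± 0.09 (log2, SE, edgeR adjusted p = 0.00048 and 0.0097), and with total counts alone they were 0.09 and 0.12 and not called. The subunit gene Tmem30a differed by 0.15 (edgeR adjusted p = 0.44). In cycling cells at 32 h 1 of 16 rose, Atp9a by 0.37 (edgeR adjusted p = 0.016), and at 24 h 0 of 16 were called by edgeR or DESeq2, with 2 at an unadjusted p under 0.05. After 24 h of DOX 4 of 16 rose and 2 fell, a share close to the 36.9% of all genes, among them Atp8b1 with 1.71 and Atp8b2, which fell by 0.93 (edgeR adjusted p = 0.0071 and 3.4e-05).

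In the noncanonical WNT list, 13 of 31 tested genes rose and 6 fell in synchronized 4HT cells (median 0.14), but 1 rose and 10 fell with total counts alone (median -0.06). Of all genes, 37% were called in either direction. Ror2, the closest relative of Ror1, rose by 0.26 ± 0.07 (edgeR adjusted p = 0.0063; 0.07 and not called with total counts alone). The effector gene Dvl3 rose by 0.37 (adjusted p = 0.00042), and the receptor gene Fzd5 fell by 0.39 (adjusted p = 0.00019). Wnt5a, the ligand, stayed at or below 0.68 CPM in every library. At 32 h in cycling cells 0 of 31 rose and 3 fell (Fzd4, Vangl2 and Dvl1, by 0.72, 0.36 and 0.43), or 1 and 0 with total counts alone, and Ror2 differed by -0.18 (edgeR adjusted p = 0.57). After 24 h of DOX 10 of 31 rose and 3 fell, against 36.9% of all genes called, and the feedback gene Nkd1 rose by 1.43 while Fzd5 fell by 1.5.

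Among the SLC7 and SLC3 transporters, 2 of 12 tested genes rose and 4 fell in synchronized 4HT cells (median -0.14), or 1 and 6 with total counts alone (median -0.34), where 37% of all genes were called. Slc3a1, the heavy chain that pairs with Slc7a9, was one of the genes that rose, by 0.70 ± 0.14 (edgeR adjusted p = 0.00062), and by 0.51 with total counts alone. Its levels were 2.14 to 4.76 CPM (median 3.10) after 4HT against 1.23 to 3.82 CPM (median 1.98) after ethanol, so the arms overlapped across times. In cycling cells Slc3a1 differed by 0.13 at 24 h and by 0.49 at 32 h (edgeR adjusted p = 0.96 and 0.22). After 24 h of DOX Slc3a1 rose by 1.55 ± 0.29 (edgeR adjusted p = 0.0033), the opposite direction to Slc7a9. Slc7a13, a kidney light chain of Slc3a1, stayed at or below 0.343 CPM in every library. At 32 h in cycling cells 1 of 13 rose, Slc7a2, and 3 fell, the arginine transporter genes Slc7a3 and Slc7a1 and the heavy chain gene Slc3a2, by 0.70, 0.44 and 0.39, where 9.47% of all genes were called, and with total counts alone 1 rose and 1 fell.

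In the tight junction list, 14 of 29 tested genes rose in synchronized 4HT cells and 2 fell (median 0.16), where 37% of all genes were called in either direction, but 7 rose and 6 fell with total counts alone (median -0.05). F11r, which encodes the adhesion molecule JAM-A, rose by 0.57 ± 0.04 and the scaffold gene Tjp1 by 0.43 ± 0.09 (log2, SE, edgeR adjusted p = 1.9e-09 and 0.0011), and both were still called with total counts alone, at 0.36 and 0.23. Cgn, the closest relative of Cgnl1, differed by 0.14 (edgeR adjusted p = 0.20), at 3.70 to 6.42 CPM after 4HT against 3.56 to 6.81 CPM after ethanol. F11r was also the 1 of 32 genes called in cycling cells at 24 h, by 0.51 ± 0.08 (edgeR adjusted p = 0.011), where 0.481% of all genes were called. It rose by 0.58 at 32 h, when Camsap3 was the other called gene and 9.47% of all genes were called. After 24 h of DOX 14 of 30 rose and 4 fell, against 36.9% of all genes called, and Patj rose by 2.66, Tjp1 rose by 0.73 and Jam2 fell by 3.45.

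**Figure D4:**
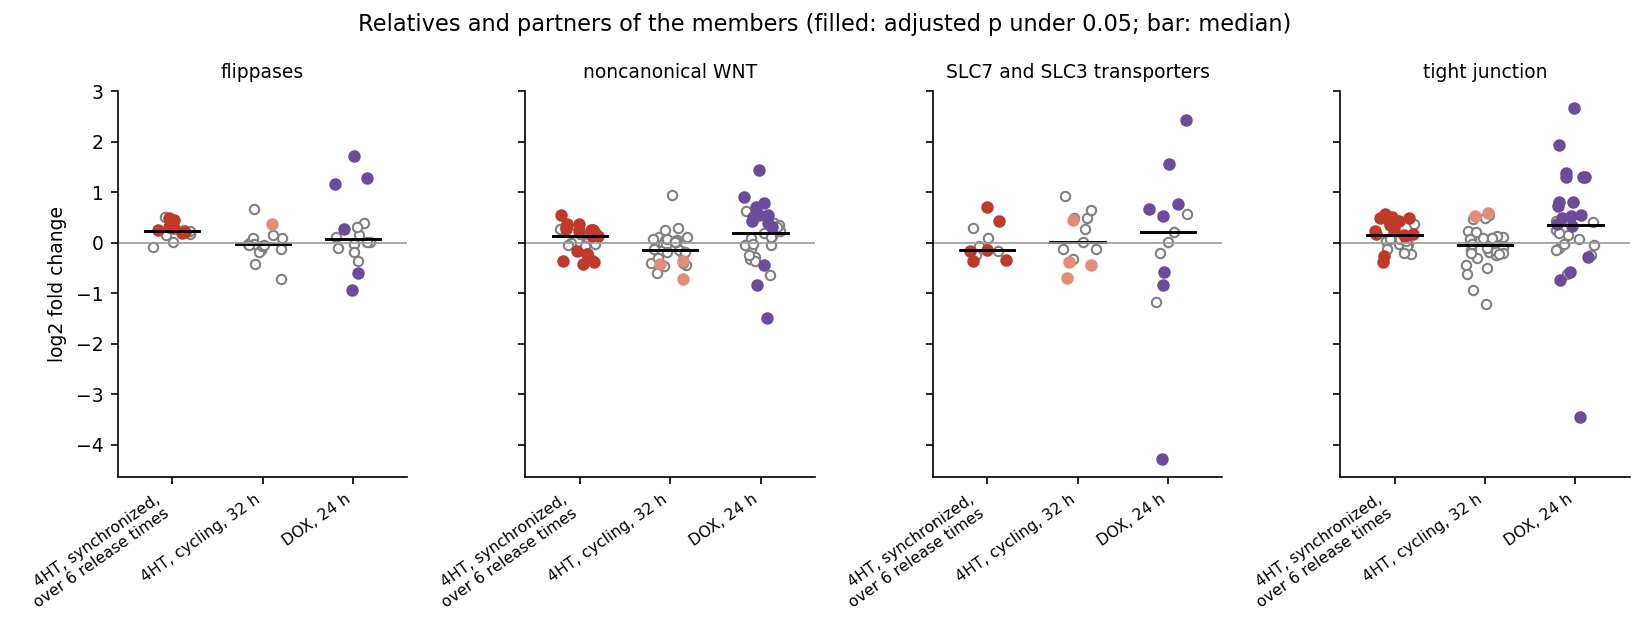
Log2 change of each tested gene of the 4 family lists (vertical axis) after 4HT in synchronized cells over 6 release times, after 4HT in cycling cells at 32 h and after 24 h of DOX, with filled points for an edgeR adjusted p under 0.05 and a bar at the list median. The synchronized medians are 0.24, 0.14, -0.14 and 0.16, and the spread is widest after DOX.

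Genes next to the members were read in the same fits. Of 44 named neighbours within 500 kb of a member, Foxd3 left out, 38 were tested in synchronized cells, and 9 were called higher and 4 lower, where 37% of all genes were called in either direction. With total counts alone 0 were called higher and 13 lower. All neighbour differences lay between -0.55 and 0.53 on the log2 scale. Beside Atp8b4, Slc27a2 at 51.733 kb rose by 0.24, Usp8 by 0.26 and Galk2 by 0.35, and the nearest gene on the other side, Dtwd1 at 155.694 kb, differed by -0.15 without a call.

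The neighbours of Slc7a9 moved in both directions in synchronized 4HT cells. Tdrd12 at 3.062 kb rose by 0.11 (-0.10 and not called with total counts alone), while Cep89 at 10.107 kb on the other side differed by 0.03 without a call. Dpy19l3, Pepd and Rhpn2 rose by 0.16, 0.15 and 0.14, and Faap24, Rgs9bp, Cebpg and Zfp507 fell by 0.55, 0.38, 0.16 and 0.13. Beside Cgnl1, Myzap at 34.149 kb differed by 0.02 and Tcf12 at 71.086 kb by 0.31, and none of the 6 tested genes was called by edgeR or DESeq2, with 1 at an unadjusted p under 0.05. In cycling cells at 24 h 0 of 36 neighbours were called by edgeR or DESeq2, with 4 at an unadjusted p under 0.05, and at 32 h Ankrd27, a neighbour of Slc7a9, was the 1 called, and it fell by 0.28.

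After DOX 2 of 36 tested neighbours rose and 7 fell at 24 h, and 0 rose and 5 fell at 16 h, where 36.9% and 16.9% of all genes were called. At 24 h Tdrd12, next to Slc7a9, fell by 0.88 (edgeR adjusted p = 0.00078), in the same direction as Slc7a9, as did Nudt19 and Faap24, which fell by 0.66 and by 0.68. Slc27a2 fell by 1.22 and Sppl2a rose by 0.41 beside Atp8b4, and Aldh1a2 and Aqp9 fell by 1.51 and by 1.31 beside Cgnl1, which itself rose. Beside Ror1, Cachd1 fell by 1.11 at 16 h and by 1.0 at 24 h, and Ube2u rose by 1.33 at 24 h. Tdrd12, Rhpn2, Dpy19l3 and Aldh1a2 were the other genes called at 16 h.

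Ror1 lies on the same chromosome as the targeted gene. The end of Foxd3 (ENSMUSG00000067261.4, chr4:99656299-99658622, plus strand) is 437.168 kb before the start of Ror1, with Alg6, Itgb3bp, Efcab7 and Pgm1 between them. The nearest genes to Ror1 are Pgm1 at 108.497 kb, which differed by -0.09 in synchronized cells, and Ube2u at 34.084 kb, which differed by 0.53 on at most 13 counts per library, and neither was called. Of the 6 tested neighbours of Ror1, Alg6 rose by 0.32 ± 0.07 (log2, SE, edgeR adjusted p = 0.0010) and Cachd1 by 0.27 (adjusted p = 0.0037) in synchronized cells, and with total counts alone they were 0.11 and 0.07 and not called. None of the 5 neighbours of Ror1 tested in cycling cells was called by edgeR at 24 or 32 h, where 0.481% and 9.47% of all genes were called.

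**Figure D5:**
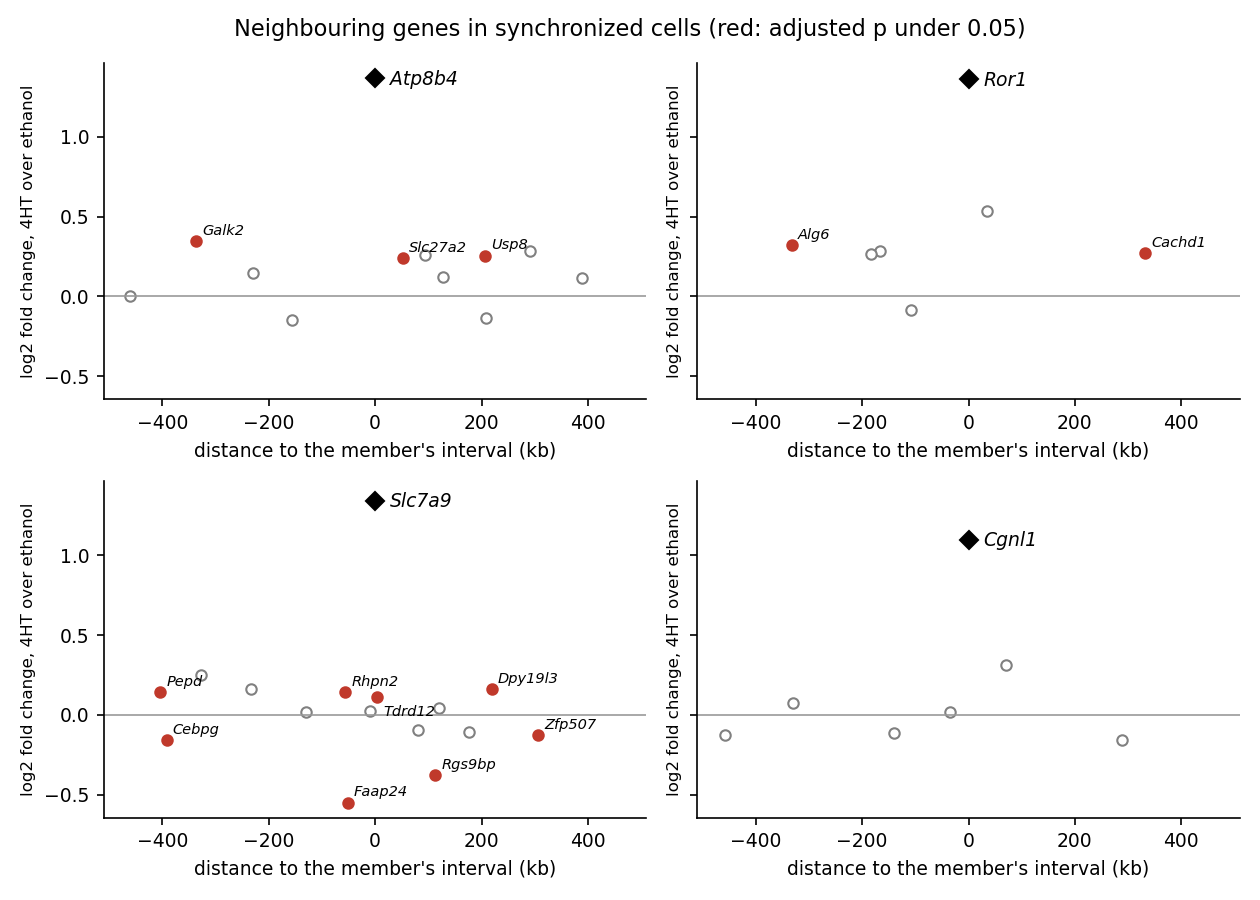
Log2 change in synchronized cells over 6 release times (vertical axis) against distance in kb before or after the interval of each member (horizontal axis), with filled points for an edgeR adjusted p under 0.05 and a black diamond for the member itself. Neighbour points lie between -0.55 and 0.53, and the diamonds, at 1.10 to 1.37, are the values on which the members were chosen.

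Across the 24 group means of log2 CPM, with each table centred on its own mean, the members were alike to different degrees. Pearson's r was 0.929 between Ror1 and Cgnl1, 0.792 between Atp8b4 and Cgnl1, 0.688 between Slc7a9 and Cgnl1, 0.672 between Ror1 and Slc7a9, 0.635 between Atp8b4 and Slc7a9 and 0.606 between Atp8b4 and Ror1. With Foxd3 it was -0.740 for Atp8b4, -0.668 for Cgnl1, -0.419 for Ror1 and -0.353 for Slc7a9. These are descriptions over 24 points that share libraries, depth and the contrast that chose the genes. Among 11722 genes ranked on the same measure, those most like Atp8b4 were Stox1, Cdc23 and Slc26a9 (r = 0.854, 0.841 and 0.824). Those most like Ror1 were Lrrk2, Cgnl1 and Aff3 (0.935, 0.929 and 0.913), and those most like Cgnl1 were Rimkla, Sh3pxd2a and Ror1 (0.955, 0.933 and 0.929). Slc7a9 was most like Atad5, Pcx and Otx2os1 (0.909, 0.896 and 0.888).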

How the data were processed

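Nascent RNA labelled with 4SU was measured in 48 libraries of mouse ESCs (24 groups of 2, 3 tables). The deposited values are raw counts per gene, whole numbers over intervals whose length equals first to last base in 54752 of 54752 genes; reads were aligned with STAR and counted with featureCounts on mm10, per the submitters' processing notes. The tool versions, the strandedness and the treatment of multi-mapped reads were not given in the sources used here; antisense partners and near-identical copies may share reads. Of 54752 identifiers, 54723 matched a gene name. No pair of libraries held identical values. The non-coding genes Gm26917 and Gm42418, which overlap ribosomal RNA repeats, took 12.5 to 37.1% of counts in cycling FOXD3-iKO, 18.1 to 43.0% in OCT4-tetOff and 3.41 to 25.4% in synchronized libraries. Their shares at 0 h of release were 19.7 and 15.6% after 4HT against 4.92 and 3.41% after ethanol. At 2 h they were 21.1 and 16.5% against 4.39 and 10.6%, and the arms overlapped at 1, 3, 4 and 5 h. In cycling cells at 32 h they were 13.89 and 12.51% after 4HT against 14.25 and 28% after ethanol.

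Each table was fitted by itself in edgeR 4.0.16 (R 4.3.3): low genes removed with filterByExpr at its minimum count (10), TMM scaling, all groups of the table sharing the spread, quasi-likelihood tests, Benjamini-Hochberg adjustment over all genes tested and a threshold of 0.05. The FOXD3 and OCT4 responses at 24 h were compared in 1 joint fit of 18437 genes. Intervals are 95% and use the degrees of freedom of each test. Alternatives used DESeq2 1.42.0, other scalings, no filter, a length trend removed, the compared groups alone, a replicate block and each library left out. The fits were tested on simulated data.

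The members and the gene lists were chosen with earlier results of these data known, so synchronized 4HT against ethanol values of members carry no test. Named relatives are the closest relative or partner of each member and up to 4 called genes per list with the smallest p; neighbours are the nearest on each side and called ones. A gene that this rule names is not reported here. The limit of 3 counts covers counting error only.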

Additional observations from a re-analysis of the deposited data

Results flagged for a closer look

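One result was flagged because the responses of 1 gene to 4HT and to DOX went in opposite directions and their difference passed its own test. That test called 16.5% of 18437 genes. At 24 h the Slc7a9 response to 4HT in FOXD3-iKO cells less its response to DOX in OCT4-tetOff cells was 2.84 on the log2 scale (edgeR adjusted p = 0.00041). The gene had 4.23 and 4.72 CPM after 4HT against 2.75 and 2.18 CPM after ethanol, and 0.377 and 0.516 CPM after DOX against 1.70 and 1.87 CPM after water. Leaving out any 1 of the 8 libraries gave 2.62 to 3.07. The 2 arms come from different genotypes and tables, and the DOX values rest on 11 and 14 counts. As given above, the 4HT call of Slc7a9 at 24 h was lost without any 1 of its 4 libraries.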

How the results depend on the processing

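For 49 results on the 4 members, 800 values were computed under other settings; 726 kept direction and side of the threshold, and 12 reversed. Log2 values of synchronized 4HT against ethanol stayed positive throughout: 1.13 for Atp8b4 with the length trend removed, 1.14 for Slc7a9 with total counts alone, and 0.90, 0.94 and 0.88 for Cgnl1 with total counts alone, total counts outside Gm26917 and Gm42418, and the length trend removed.

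In cycling cells Cgnl1 was called at 24 h at 0.71 with DESeq2, 0.70 with RLE factors, 0.73 with total counts alone or outside those 2 genes, 0.71 without the filter, 0.77 without the length trend and 0.70 with only the compared groups. At 32 h that last setting ended the calls of Cgnl1 (0.98) and Slc7a9 (1.13), and Slc7a9 at 24 h was lost outside those 2 genes (0.89) and with the replicate block (0.84). With the length trend removed Ror1 was called at 24 h (0.46), after 24 h of DOX (-0.41), for DOX at 24 h less 16 h (0.91; 1.17 without the filter), and for the FOXD3 less OCT4 response (0.82), as was Cgnl1 for that last difference (0.44). Ror1 at 32 h less 24 h turned to 0.01 with total counts alone. Slc7a9 at 16 h of DOX was called without the filter and with only the compared groups (-0.91 in both). Over 4 times the adjusted p of Cgnl1 was 0.0489 with DESeq2, 0.0315 with total counts alone, 0.000553 without the filter and 0.00102 without the length trend. The release course of Atp8b4 in ethanol cells gave 0.0328 outside those 2 genes and without the filter, 0.000747 without the length trend and 0.0485 with the replicate block. The course of Cgnl1 gave 0.0579 and 0.213 in 4HT cells (outside those 2 genes; length), and 0.194, 0.210, 0.0922 and 0.198 in ethanol cells (total counts; outside; no filter; length). The cause of these changes was not tested.

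Leaving out 1 library at a time gave ranges for log2 values. They were 1.86 to 2.20 for Atp8b4 and 0.74 to 1.05 for Slc7a9 at 24 h, -0.02 to 0.16 for Ror1 at 8 h and -0.10 to 0.65 at 32 h. For 32 h less 24 h they were -0.44 to 0.31 for Ror1 and -0.02 to 0.52 for Cgnl1. After DOX they were -1.41 to -1.15 (16 h) and -0.58 to 0.28 (24 h) for Ror1, and -0.07 to 0.25 and 0.42 to 0.75 for Cgnl1. For the FOXD3 less OCT4 response they were -0.17 to 1.77 for Atp8b4, negative without the second water library, 0.09 to 0.93 for Ror1 and -0.07 to 0.28 for Cgnl1. Adjusted p ranges were 0.00468 to 0.578 for Cgnl1 over 4 times. For the release courses they were 0.00552 to 0.0935 (4HT) and 0.0039 to 0.278 (ethanol) for Atp8b4, 0.0223 to 0.0603 for Ror1 in 4HT cells and 0.00515 to 0.0695 for Cgnl1 in ethanol cells.

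Counts of all genes moved more: 90 at 24 h became 2 to 14 without 1 library and 46 to 362 elsewhere, and 1771 at 32 h became 597 to 4370 and 194 to 2598. The split of higher and lower calls turned on the scale: 3300 and 3265 in synchronized cells against 796 and 7413 with total counts alone, where the median gene moved to -0.21, and 913 and 858 at 32 h against 1562 and 239. After DOX it was 1407 and 1579 at 16 h against 2392 and 1019, and 3210 and 3321 at 24 h against 3546 and 2594. For the FOXD3 less OCT4 response it was 1674 and 1365 against 1372 and 1483. Of 515 list counts, 434 stayed within 1.5 times.

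No label says that replicate numbers pair the samples, and same-numbered libraries did not deviate together throughout: the correlation was 0.72 at 24 h of DOX, 0.41 and 0.35 in cycling cells at 14 and 24 h and 0.20 to 0.45 at 0 to 3 h of release, but -0.25 at 16 h of DOX and at 32 h, -0.04 at 8 h, and 0.01 and 0.02 at 4 and 5 h of release. They were therefore not used as pairs. With the replicate block 62 genes were called at 24 h, 1555 at 32 h, 3464 after 16 h of DOX and 4272 and 6298 along the release in 4HT and ethanol cells, against 2727 and 3441 without it. A crossed pairing, chosen after seeing the data, gave 1629 at 32 h and 2932 after 16 h of DOX. Depth limits Atp8b4 most: it had 1 to 29 counts in every OCT4-tetOff library and in every cycling FOXD3-iKO library except the 4HT libraries of 24 and 32 h.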

Other observations

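The vehicle levels of the members differed between the tables, which were normalised separately. The synchronized libraries had a 15 min 4SU pulse and the cycling FOXD3-iKO and OCT4-tetOff libraries a 30 min pulse. The OCT4-tetOff libraries also came from another genotype. Atp8b4 had a median of 8.05 CPM in synchronized ethanol cells, while its 8 cycling ethanol libraries lay between 0.227 and 0.964 CPM. Slc7a9 had a median of 3.32 CPM in synchronized ethanol cells and 1.44 to 3.21 CPM in the cycling ethanol libraries, and in OCT4-tetOff water libraries it had 1.07 to 1.87 CPM.

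Ror1 and Cgnl1 differed between cycling ethanol libraries of different times. Ror1 had 2.61 to 3.63 CPM at 8 and 14 h and 19.1 to 34.6 CPM at 24 and 32 h. Cgnl1 had 8.01 to 9.95 CPM at 8 and 14 h and 17.6 to 31.2 CPM at 24 and 32 h. The libraries of 8 and 14 h and those of 24 and 32 h belong to different numbered series, so the time after treatment cannot be told apart from the series.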
